A study of Homo sapiens with 12 samples.

Results

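The 10 genes described here encode RNA-binding proteins of the CELF, MBNL, PTBP, RBFOX, QKI and ELAVL families. They are CELF1, CELF2, MBNL1, MBNL2, MBNL3, PTBP1, PTBP2, RBFOX2, QKI and ELAVL1, out of 17518 genes in the deposited table, of which 13625 had enough counts to be tested. All 10 were tested. They were chosen by name, because CELF2 had 1 of the largest falls after NUDT21 knockdown in MUTZ-1 cells, at rank 66 from the most negative of the genes tested. In GRCh38, CELF1 lies on chromosome 11, CELF2 on 10, MBNL1 on 3, MBNL2 on 13, MBNL3 on X, PTBP1 and ELAVL1 on 19, PTBP2 on 1, RBFOX2 on 22 and QKI on 6. That value of CELF2, and the difference between the lines that contains it, are therefore given as a description without a test.

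RNA sequencing had been done on 12 libraries. They came from MUTZ-1 and SKM-1, human cell lines labelled as myelodysplastic syndrome cells from bone marrow. The groups were MUTZ-1 with a short hairpin RNA against NUDT21 (shNUDT21), MUTZ-1 with a control hairpin, SKM-1 with shNUDT21 and SKM-1 with a control hairpin, with 3 libraries in each group. The controls are labelled wild type, and all groups carried a hairpin. The titles name a single hairpin, so that its own off-target effects cannot be told apart from the loss of NUDT21. The hairpin sequence, its promoter and whether clones or pools were used are not given in the sources at hand, and nothing says that the replicates came from separate cultures. P-values therefore measure only the spread between these libraries, which may be technical. The series text writes the name MUTZ-1 for both lines at its first mention, and lines were taken from the sample titles.

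Proteins of these families bind short motifs in introns and 3′ untranslated regions (3′ UTRs) and set which exons are joined, where RNA is cleaved and how long it lives. CELF proteins bind GU-rich RNA and often act against MBNL proteins, zinc finger proteins that are trapped by expanded CUG repeats in myotonic dystrophy. NUDT21 encodes a subunit of cleavage factor Im, which recognises UGUA elements near poly(A) sites and helps to decide where a transcript ends. The comparisons ask how lowering it changed the mRNA of these regulators in each line. Counts per gene do not show which 3′ end was used.

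Levels are given in CPM, the share of a library's counts that a gene takes, with trimmed-mean (TMM) scaling. A gene is said to have changed where edgeR's quasi-likelihood test gave a Benjamini-Hochberg adjusted p under 0.05 over all genes tested. The SE beside a log2 fold change was derived from that test, as the absolute change over the square root of its F statistic. It was not estimated separately and can fall below counting error in genes of few counts. NUDT21 itself was at 135, 136 and 142 CPM in MUTZ-1 shNUDT21, against 301, 297 and 301 CPM in MUTZ-1 control. In SKM-1 it was at 131, 132 and 129 CPM with shNUDT21, against 322, 336 and 344 CPM in control. The hairpin libraries lay below the control libraries in both lines, and 46.1% and 39.2% of the control level were left in MUTZ-1 and SKM-1 (log2 fold changes -1.12 ± 0.03 and -1.35 ± 0.03, SE). In SKM-1 the 50 tested genes within 5 Mb of NUDT21 had a median log2 fold change of -0.96. Total counts ran from 15843012 to 18426619 per library.

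The lines differed widely in lineage markers. The summed level of 6 B-lineage genes was 1636 to 1679 CPM in MUTZ-1 shNUDT21 and 1990.0 to 1998 CPM in MUTZ-1 control, with 4 of 6 lower after knockdown. In SKM-1 the same sum was 1.68 to 2.82 CPM with shNUDT21 and 4.83 to 7.93 CPM in control. The sum of 6 erythroid genes was 1203 to 1251 CPM in SKM-1 shNUDT21 and 322 to 329 CPM in SKM-1 control, and all 6 rose. In MUTZ-1 it was 23.4 to 24.7 CPM with shNUDT21 and 17.7 to 19.5 CPM in control. Markers outside blood moved in SKM-1 too, with 4 of 4 tested epithelial genes higher, 3 of 4 fibroblast genes lower and 1 higher, and 3 of 6 neuronal genes higher and 2 lower. The epithelial sum was 764 to 789.5 CPM with shNUDT21 and 374 to 382 CPM in control, the fibroblast sum 13.03 to 16.1 CPM with shNUDT21 and 64.6 to 70.6 CPM in control, and the neuronal sum 99.0 to 104 CPM with shNUDT21 and 406 to 412 CPM in control. Single genes set the last 2 sums in SKM-1 control: COL3A1 averaged 46.2 CPM there and 1.75 CPM with shNUDT21, and UCHL1 345 and 13.8 CPM. Against them, COL1A2 averaged 2.65 CPM in SKM-1 control and 10.3 CPM with shNUDT21, and NEFH 4.2 and 64.1 CPM. In MUTZ-1 the neuronal sum was 535.5 to 539.9 CPM with shNUDT21 and 589 to 626 CPM in control, and the epithelial and fibroblast sums stayed below 2 CPM. The leukocyte sum was 382 to 398 CPM in MUTZ-1 shNUDT21, 351 to 358 CPM in MUTZ-1 control, 91.2 to 93.9 CPM in SKM-1 shNUDT21 and 103 to 111 CPM in SKM-1 control. Of its genes, the myeloid marker CD33 averaged 39.8 CPM in SKM-1 shNUDT21 and 8.55 CPM in SKM-1 control, and the progenitor receptor KIT 7.09 CPM in SKM-1 shNUDT21 and 49.4 CPM in SKM-1 control, 1 higher and 1 lower. The monocyte and granulocyte sum was 0.833 to 1.02 CPM in MUTZ-1 shNUDT21 and 1.64 to 4.30 CPM in MUTZ-1 control. In SKM-1 it was 31.4 to 32.1 CPM with shNUDT21 and 10.7 to 13.4 CPM in control. Only 2 of its 6 genes were tested, and both rose in SKM-1. LYZ averaged 25.3 CPM in SKM-1 shNUDT21 and 9.12 CPM in SKM-1 control, and ITGAM 6.21 and 2.42 CPM. CSF1R went the other way, with 2 counts in SKM-1 shNUDT21 and 13 in SKM-1 control. CD34 and MPO, markers of immature and of granulocytic cells, had 0 or 1 count per group. In bulk RNA, fewer cells of a type and less RNA per cell cannot be told apart.

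Because NUDT21 acts at UGUA, the 3′ UTRs of the genes were searched for TGTA, on the transcript strand, in the longest annotated 3′ UTR of each gene (GENCODE release 29, GRCh38). All 10 had a 3′ UTR longer than the median of 13249 tested genes, with a median length of 5828.5 bases against 1330 bases, and a median of 32 TGTA against 6 TGTA. Per kilobase the medians were 6.42 for the 10 genes and 4.94 for all genes, and 8 of the 10 lay above the median of all genes. At least 1 TGTA stood in the last 100 bases of 7 of the 10, against 54.1% of all genes. The element nearest to the annotated 3′ end is shown for the 5 genes whose levels moved most in SKM-1, with TGTA in capitals. A match is a string of letters and not a shown binding site.
CELF2, chr10:11336514-11336543, plus strand, GRCh38: ggactctgttgtgTGTAaagttaatgtgat
QKI, chr6:163578155-163578184, plus strand, GRCh38: gatgaaaatctacTGTAgtctgttttaaag
MBNL2, chr13:97394071-97394100, plus strand, GRCh38: ttcactcacccaaTGTAcaaccaatgaaat
MBNL3, chrX:132369317-132369341, minus strand, GRCh38: taataaatgtgtgTGTAgtttattc
RBFOX2, chr22:35738837-35738866, minus strand, GRCh38: attactctccatgTGTAtaaattattgatc
These TGTA stood 149 bases from the annotated end in CELF2, 429 in QKI, 37 in MBNL2, 12 in MBNL3 and 118 in RBFOX2. No relation between this distance and the change in level was tested.

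Across both lines, PTBP1 had the highest level per gene length of the 10, followed by MBNL1, ELAVL1 and CELF1 in that order in all 4 groups. PTBP1 averaged 152 ± 3.45 FPKM in MUTZ-1 shNUDT21, 164 ± 2.80 in MUTZ-1 control, 173 ± 1.81 in SKM-1 shNUDT21 and 110.1 ± 0.381 in SKM-1 control (SD, n = 3 each). CELF2 was the lowest of the 10 in both MUTZ-1 groups, at 0.129 ± 0.00696 FPKM with shNUDT21 and 1.18 ± 0.118 FPKM in control. In SKM-1 MBNL3 was the lowest, at 0.122 ± 0.0380 FPKM with shNUDT21 and 1.62 ± 0.0629 FPKM in control. The ratio of the highest to the lowest group mean in CPM was 126-fold for CELF2, 60.8-fold for MBNL3 and 1.64-fold to 3.81-fold for the other 8. The share of all genes with 4 separate groups was not computed, so no count of such genes is given for the 10. Shares for single pairs of groups follow. Of all genes tested, 53.6% did not overlap between the MUTZ-1 groups and 84.6% between the SKM-1 groups. Between the 2 controls it was 90.0%, and between the 2 shNUDT21 groups 87.4%. For PTBP1, SKM-1 shNUDT21 overlapped MUTZ-1 control, and for PTBP2 both MUTZ-1 groups overlapped.

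**Figure D1:**
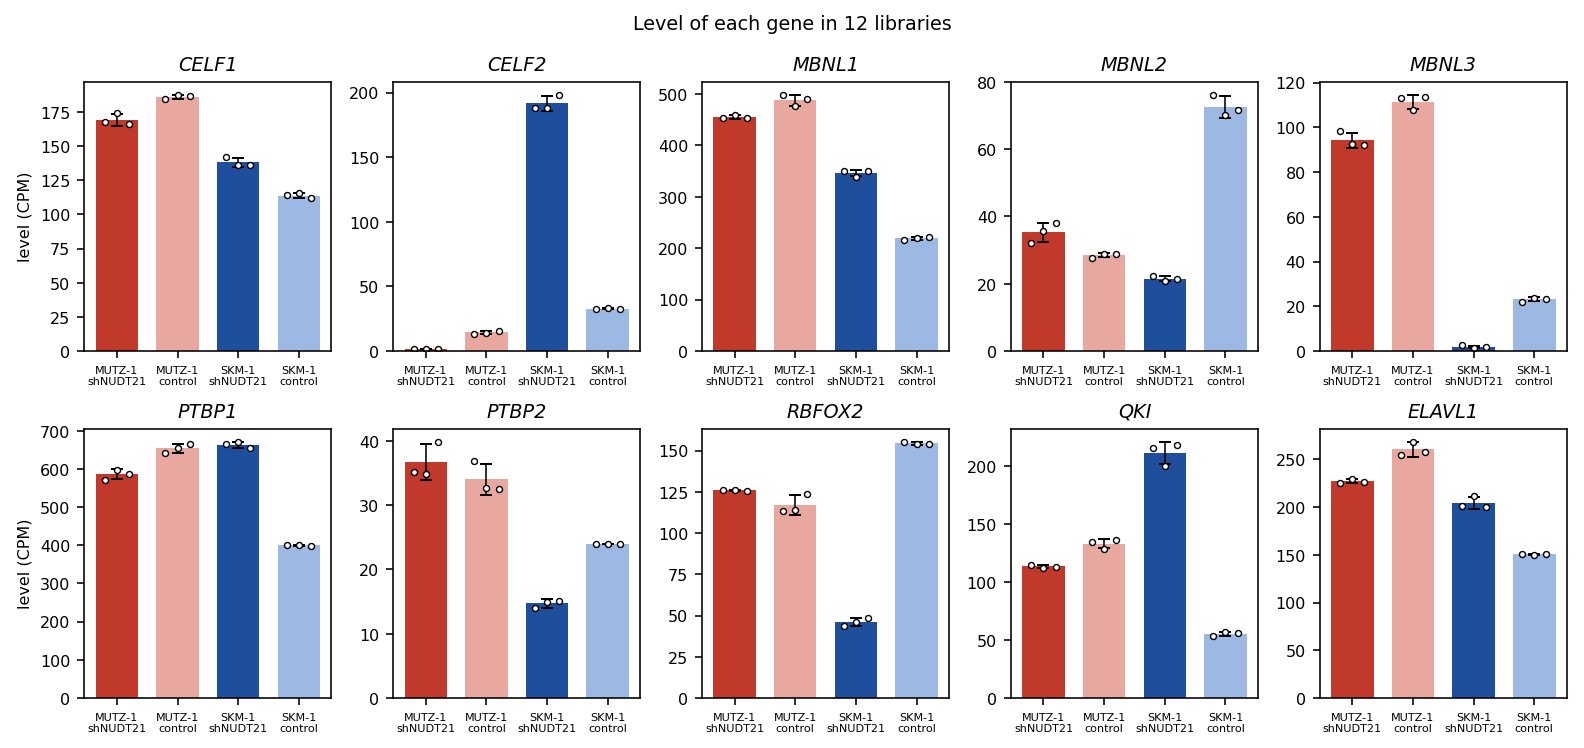
Level of each of the 10 genes in CPM (vertical axis, from 0) in the 4 groups; bars are means, error bars SD and circles the 3 libraries. CELF2 reaches 188 to 198 CPM in SKM-1 shNUDT21 and 1.43 to 1.59 CPM in MUTZ-1 shNUDT21, and MBNL3 has its 3 lowest libraries in SKM-1 shNUDT21.

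CELF2, a regulator of splicing and mRNA decay in blood and brain, moved in opposite directions in the lines. It was at 1.52, 1.59 and 1.43 CPM in MUTZ-1 shNUDT21, against 12.9, 14.2 and 15.8 CPM in MUTZ-1 control (75 and 745 counts over 3 libraries). All libraries with shNUDT21 lay far below all controls, and 10.6% of the control level was left (log2 fold change -3.23, the value that chose the gene). With SKM-1 shNUDT21 it was at 188, 188 and 198 CPM, against 32.8, 33.1 and 32.6 CPM in SKM-1 control. There it rose 5.83-fold (2.54 ± 0.05, adjusted p = 8.74e-126, edgeR), while the 40 tested genes within 5 Mb had a median log2 fold change of 0.30. In MUTZ-1 the same neighbours had a median of -0.04.

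CELF1, its more widely expressed relative, changed much less. It was at 168, 174 and 166 CPM in MUTZ-1 shNUDT21, against 184, 188 and 187 CPM in MUTZ-1 control, and fell slightly (-0.14 ± 0.03, adjusted p = 3.75e-05). In SKM-1 it was at 142, 136 and 136 CPM with shNUDT21, against 114, 116 and 112 CPM in control, and rose slightly (0.28 ± 0.03, adjusted p = 8.62e-15). The groups did not overlap in either line. In SKM-1 the 45 tested genes within 5 Mb of CELF1 had a median of 0.39. With that median subtracted, an alternative chosen after seeing the data, the sign of CELF1 turned (-0.11). The adjusted p of 0.00134 there is for edgeR's value less the median, without the spread of the neighbours. Per gene length, CELF2 therefore made up very different parts of the CELF1 and CELF2 mRNA. Its share of the summed FPKM was 0.474% ± 0.0156 in MUTZ-1 shNUDT21 and 3.93% ± 0.362 in MUTZ-1 control, and 42.5% ± 1.17 in SKM-1 shNUDT21 and 13.3% ± 0.0933 in SKM-1 control (SD, n = 3 each).

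Among the muscleblind genes, MBNL1 was the most abundant per length in every group and rose in SKM-1 while the other family members fell. MBNL1 was at 349.5, 339 and 350.1 CPM in SKM-1 shNUDT21, against 216, 219 and 221 CPM in SKM-1 control (1.58-fold, log2 0.66 ± 0.02, adjusted p = 2.39e-68). The 29 tested genes within 5 Mb had a median of -0.58, on the other side of 0, which left 1.24 after subtraction. In MUTZ-1 it was at 453, 458 and 453 CPM with shNUDT21, against 497, 476 and 490.4 CPM in control, a small fall (-0.10 ± 0.02, adjusted p = 3.80e-05) without overlap of the groups. That call was lost in limma's test on FPKM (adjusted p = 0.0920 with a pseudocount of 1 and 0.0938 with 0.1).

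MBNL3, which in mouse is known from placenta and muscle precursors, had the largest fall of the 10 in SKM-1. It was at 2.44, 1.32 and 1.74 CPM in SKM-1 shNUDT21, against 22.0, 23.8 and 23.4 CPM in SKM-1 control, which left 7.94% (-3.66 ± 0.12, adjusted p = 6.57e-79). Its 41 neighbours on the X chromosome had a median of -0.49. In MUTZ-1 it was at 98.2, 92.6 and 92.1 CPM with shNUDT21, against 113, 108 and 114 CPM in control (-0.24 ± 0.04, adjusted p = 1.35e-07). It fell in both lines, the only 1 of the 9 genes other than CELF2 to change in the same direction in both. The MUTZ-1 fall was not called by limma on log2(FPKM + 0.1) (adjusted p = 0.17).

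MBNL2, the paralogue known for its splicing targets in brain, was at 22.2, 20.9 and 21.3 CPM in SKM-1 shNUDT21, against 76.2, 70.0 and 71.5 CPM in SKM-1 control. The groups lay far apart, with 29.6% left (-1.76 ± 0.06, adjusted p = 7.59e-74). The 27 tested genes within 5 Mb on chromosome 13 fell as far, with a median of -1.70, and the chromosome had the lowest median of all in this comparison, -1.08. With the median of its neighbours subtracted, MBNL2 was at -0.05 and no longer called (adjusted p = 0.398). In MUTZ-1, where chromosome medians ran only from -0.02 to 0.04, it was at 32.2, 35.7 and 37.9 CPM with shNUDT21, against 27.7, 28.97 and 28.96 CPM in control, and rose 1.24-fold (0.30 ± 0.06, adjusted p = 1.19e-05).

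As shares of the summed FPKM of the family, MBNL1 made up 84.5% ± 0.285 in MUTZ-1 shNUDT21 and 85.2% ± 0.227 in MUTZ-1 control, and 93.7% ± 0.194 in SKM-1 shNUDT21 and 71.5% ± 0.896 in SKM-1 control. MBNL2 made up 6.07% ± 0.132 in SKM-1 shNUDT21 and 24.8% ± 1.05 in SKM-1 control, and MBNL3 0.244% ± 0.0725 and 3.72% ± 0.159 in the same groups (SD, n = 3 each). MBNL1 thus made up nearly all of the family in SKM-1 shNUDT21, while no share in MUTZ-1 differed between the groups by more than 2 percentage points.

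**Figure D2:**
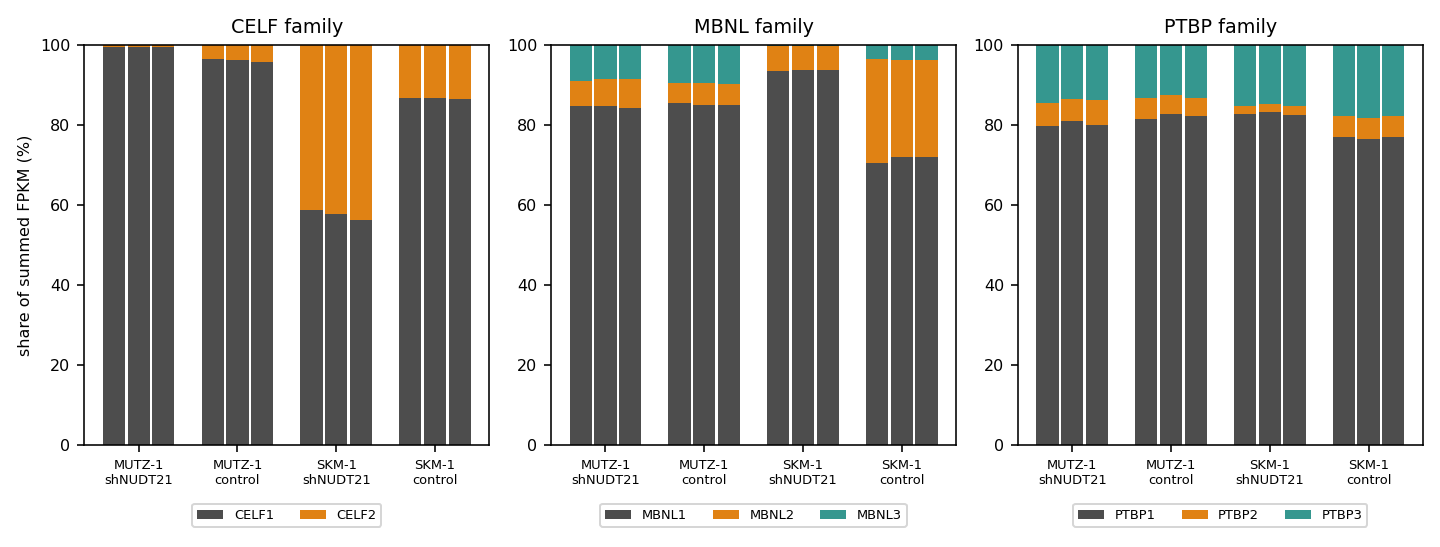
Share of each paralogue in the summed FPKM of its family (vertical axis, percent), one bar per library and 3 bars per group. CELF2 takes 42.5% of CELF1 plus CELF2 in SKM-1 shNUDT21 against 13.3% in SKM-1 control, and MBNL2 6.07% against 24.8% of its family in the same groups.

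The pyrimidine-tract binding proteins repress exons flanked by pyrimidine-rich sequence, and PTBP1 holds down its neuronal paralogue PTBP2 through skipping of a PTBP2 exon. PTBP1 was at 666, 670.1 and 654 CPM in SKM-1 shNUDT21, against 400.2, 400.1 and 399 CPM in SKM-1 control, and rose 1.66-fold (0.73 ± 0.02, adjusted p = 1.94e-85, and 0.34 with the 5 Mb median subtracted). PTBP2 was at 13.97, 15.0 and 15.1 CPM in SKM-1 shNUDT21, against 24.0 CPM in each SKM-1 control, and fell to 61.4% (-0.70 ± 0.08, adjusted p = 7.68e-16). The paralogues thus changed in opposite directions in SKM-1, with no overlap for either.

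In MUTZ-1, PTBP1 was at 572, 598 and 587 CPM with shNUDT21, against 642, 655 and 665 CPM in control, and fell slightly (-0.16 ± 0.02, adjusted p = 6.57e-12). PTBP2 was at 35.2, 34.9 and 39.9 CPM in MUTZ-1 shNUDT21, against 36.9, 32.7 and 32.6 CPM in MUTZ-1 control. These groups overlapped and the test gave no call (0.11 ± 0.07, adjusted p = 0.177). It became a call without MUTZ-1 shNUDT21 replicate 2 (adjusted p = 0.0447), without MUTZ-1 control replicate 1 (0.0240) and with library totals as the only scaling (0.0421). PTBP3, the paralogue outside the nervous system, rose in SKM-1 (0.38 ± 0.03, adjusted p = 1.65e-30) and had a value of -0.02 ± 0.03 in MUTZ-1 (adjusted p = 0.515), whose sign turned with library totals as the only scaling (0.02). PTBP2 made up 2.08% ± 0.101 of the family's FPKM in SKM-1 shNUDT21 and 5.23% ± 0.0205 in SKM-1 control, against 5.70% ± 0.421 in MUTZ-1 shNUDT21 and 4.85% ± 0.394 in MUTZ-1 control (SD, n = 3 each).

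RBFOX2 binds GCAUG and is the member of its family found outside nerve and muscle. It was at 43.4, 46.1 and 48.5 CPM in SKM-1 shNUDT21, against 156, 154 and 154 CPM in SKM-1 control, which left 29.8% (-1.75 ± 0.04, adjusted p = 8.08e-105). Its 96 tested neighbours within 5 Mb had a median of -0.15, and with it subtracted the value was -1.59. In MUTZ-1 it was at 126 CPM in each library with shNUDT21, against 113, 114 and 124 CPM in control (0.10 ± 0.04, adjusted p = 0.00965). The groups did not overlap, but the rise was small, and with the median of 0.06 of its neighbours subtracted it was not called (adjusted p = 0.324). RBFOX1 and RBFOX3, the neuronal relatives, had at most 3 counts in any group.

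QKI, a STAR-family protein that binds ACUAA and is known from myelin and from blood cells, was at 216, 201 and 218 CPM in SKM-1 shNUDT21, against 53.7, 57.1 and 55.7 CPM in SKM-1 control. It rose 3.81-fold (1.93 ± 0.04, adjusted p = 1.90e-120), and its 20 tested neighbours had a median of 0.73, which left 1.20 after subtraction. In MUTZ-1 it was at 115, 113 and 113 CPM with shNUDT21, against 134, 129 and 136 CPM in control, and fell (-0.23 ± 0.03, adjusted p = 1.83e-09). Without overlap in either line, QKI was highest in SKM-1 shNUDT21 and lowest in SKM-1 control of the 4 groups.

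ELAVL1, or HuR, binds AU-rich elements and stabilises mRNA. It was at 201, 212 and 201 CPM in SKM-1 shNUDT21, against 151, 150.0 and 151 CPM in SKM-1 control, and rose 1.36-fold (0.44 ± 0.03, adjusted p = 1.17e-34, and 0.13 with the 5 Mb median subtracted). In MUTZ-1 it was at 226, 229 and 226 CPM with shNUDT21, against 254, 269 and 258 CPM in control, and fell (-0.20 ± 0.03, adjusted p = 6.18e-11). Its paralogue ELAVL2, a protein of neurons and germ cells, was at 1.38, 2.15 and 2.17 CPM in SKM-1 shNUDT21, against 43.1, 46.9 and 45.8 CPM in SKM-1 control, which left 4.22% (-4.57 ± 0.13, adjusted p = 2.57e-89). Its share of the summed FPKM of ELAVL1 and ELAVL2 was 0.876% ± 0.199 in SKM-1 shNUDT21 and 22.2% ± 0.786 in SKM-1 control (SD, n = 3 each). In MUTZ-1 it had 3 counts with shNUDT21 and 0 in control, so that it was at least 786-fold lower in MUTZ-1 control than in SKM-1 control (2429 counts), taking the limit of 3 counts over the group that a count of 0 allows.

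Counted together, 8 of the 9 genes other than CELF2 were called in MUTZ-1, 2 higher and 6 lower, against 49.0% of all genes tested (24.4% higher and 24.6% lower). Since CELF2's value in this comparison chose the genes, nothing is read from that count. None of the 9 changed at least 2-fold, against 4.75% of all genes. Of all genes called in MUTZ-1, 49.8% were higher, and 60.7% with library totals as the only scaling. In SKM-1 all 10 were called, 6 higher and 4 lower, against 84.4% of all genes (42.1% higher and 42.3% lower), so that a call there is the usual case. At least 2-fold changes were seen for 5 of the 10, against 35.1% of all genes and 28.4% of genes of at least 5 CPM. CELF2 and QKI were higher and MBNL2, MBNL3 and RBFOX2 lower. Groups did not overlap for 8 of the 9 in MUTZ-1, against 53.6% of genes, and for 10 of 10 in SKM-1, against 84.6%. The median absolute log2 fold change in SKM-1 was 1.24 for the 10 genes, 0.69 for all genes and 0.58 for genes of at least 5 CPM. The erythroid, epithelial, fibroblast and neuronal markers and 2 monocyte and granulocyte markers moved with the same libraries. Their part in these changes was not tested.

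**Figure D3:**
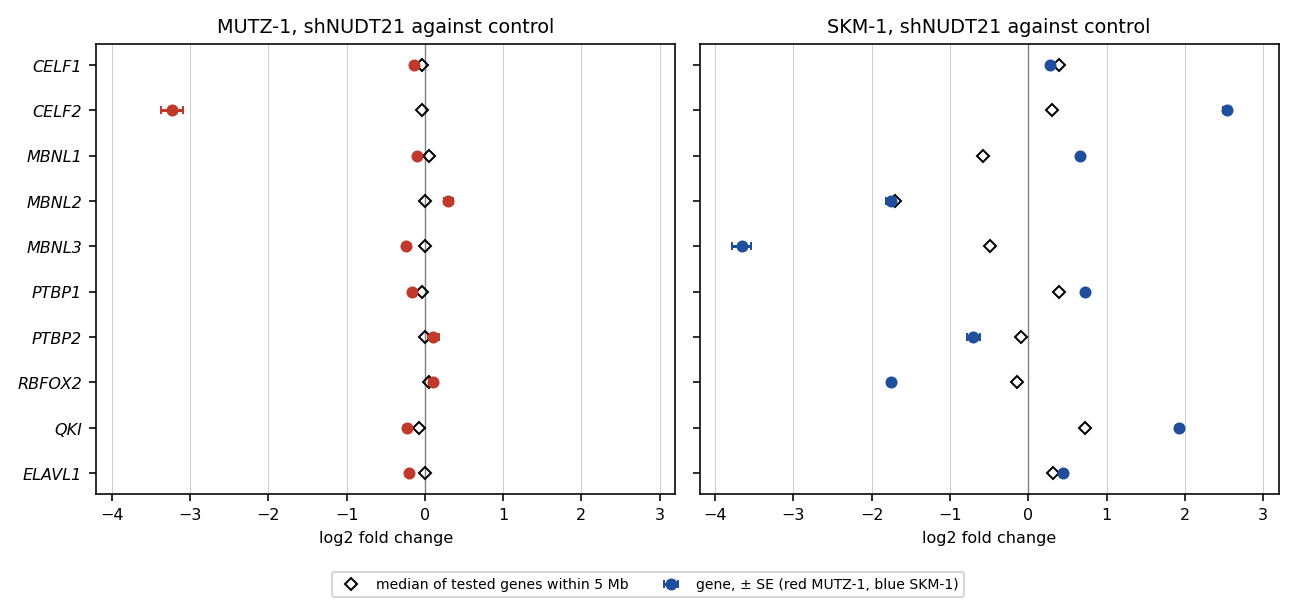
Log2 fold change of shNUDT21 against control (horizontal axis) for each gene, with MUTZ-1 on the left and SKM-1 on the right; dots are the gene with its SE, and open diamonds the median of the tested genes within 5 Mb. In SKM-1, MBNL2 lies on its neighbours (-1.76 and -1.70), while MBNL1, MBNL3, RBFOX2, QKI and CELF2 lie more than 1 unit away from theirs.

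The knockdown effect differed between the lines for all 9 genes other than CELF2, against 72.0% of all genes (36.4% higher and 35.6% lower in MUTZ-1), in edgeR's test of the difference itself. MUTZ-1 minus SKM-1, the difference was positive for MBNL3 (3.41 ± 0.13), MBNL2 (2.06 ± 0.09), RBFOX2 (1.85 ± 0.05) and PTBP2 (0.81 ± 0.10). It was negative for QKI (-2.16 ± 0.05), PTBP1 (-0.89 ± 0.03), MBNL1 (-0.76 ± 0.03), ELAVL1 (-0.64 ± 0.04) and CELF1 (-0.42 ± 0.04). The largest adjusted p among the 9 was that of PTBP2, 6.44e-13. With the median of the genes within 5 Mb subtracted, the 9 remained called in these directions, but MBNL2 was at 0.21 (its 27 neighbours had a median of 1.85). In the same setting CELF1 was at -0.20, ELAVL1 at -0.36, PTBP1 at -0.51, QKI at -1.41 and MBNL1 at -1.48. For CELF2 the difference was -5.78, given without a test. With library totals as the only scaling, the median of all genes in this comparison moved by 0.13, less than any of these differences. Of the 8 genes called in both lines, 7 changed in opposite directions, against 66.2% of the 5765 genes called in both. Opposite directions were thus also the more frequent case among all genes called in both lines.

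**Figure D4:**
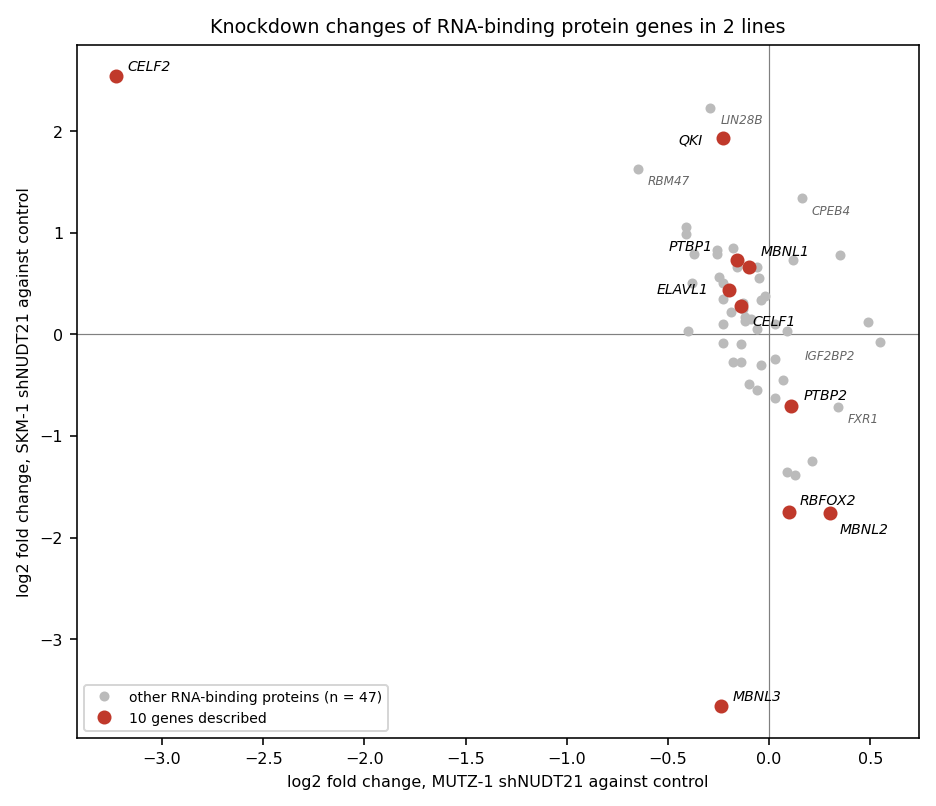
Log2 fold change of shNUDT21 against control in MUTZ-1 (horizontal axis) and SKM-1 (vertical axis) for the 10 genes (red) and for 47 other RNA-binding protein genes (grey) with a mean of at least 1 CPM in a group of each line. CELF2 stands alone at the upper left (-3.23 and 2.54), and MBNL3 lies at the bottom (-0.24 and -3.66). The limit of 1 CPM leaves out NOVA1 (-5.56), MSI1 (-4.70) and ELAVL2 (-4.57), which fell further in SKM-1.

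Between the lines, MUTZ-1 control differed from SKM-1 control in all 9 genes other than CELF2 (7 higher, 2 lower), against 90.2% of all genes (41.4% higher and 48.8% lower). The groups overlapped for none of the 9, against 90.0% of genes without overlap. MBNL3 was 4.83-fold higher in MUTZ-1 control (2.27 ± 0.05), QKI 2.40-fold and MBNL1 2.23-fold higher. MBNL2 (-1.35 ± 0.06) and RBFOX2 (-0.40 ± 0.03) were lower in MUTZ-1 control. With the 5 Mb median subtracted, MBNL2 was at -0.40 and MBNL3 at 3.58. CELF2 had a value of -1.20 between the controls and of -6.98 between the shNUDT21 cells. Both are given without a test, since they contain libraries of the comparison that chose the gene. Between the shNUDT21 cells all 9 differed again (7 higher in MUTZ-1, 2 lower), against 88.0% of all genes (41.4% higher and 46.6% lower), and none of the 9 overlapped, against 87.4% of genes without overlap. MBNL3 was 51.5-fold higher in MUTZ-1 there (5.69 ± 0.09). For MBNL2 (0.72 ± 0.07) and RBFOX2 (1.45 ± 0.04) MUTZ-1 shNUDT21 was the higher, and for QKI (-0.90 ± 0.03) and PTBP1 (-0.18 ± 0.02) the lower, so that the order of the lines for these 4 genes was the opposite of that in the controls. With the 5 Mb median subtracted, PTBP1 was no longer called (-0.01, adjusted p = 0.582) and QKI was at -0.20. The sign of MBNL1, 1 of the 7 higher in MUTZ-1, turned in that setting, from 0.39 to -0.36. With library totals as the only scaling, the median of all genes moved by -0.14 between the controls. The comparisons of lines share no libraries with each other, but each shares its libraries with the knockdown comparisons.

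Of 64 further RNA-binding protein genes listed (10 paralogues, 23 splicing regulators and 31 regulators acting at 3′ UTRs), 55 were tested. SRRM4 was not analysed here, and RBM24, ESRP2 and the paralogues CELF3, CELF4, RBFOX1, RBFOX3, ELAVL3 and ELAVL4 had too few counts. In MUTZ-1, 33 of the 55 changed, 7 higher and 26 lower, against 49.0% of all genes (24.4% higher and 24.6% lower), and none changed 2-fold. Their median log2 fold change was -0.09 against 0 for all genes, and with library totals as the only scaling 11 were higher and 21 lower. In SKM-1, 51 of 55 changed, 32 higher and 19 lower, against 84.4% of all genes (42.1% higher and 42.3% lower), with a median of 0.13 against 0. At least 2-fold changes were seen for 15, against 35.1% of all genes and 28.4% of genes of at least 5 CPM. The effect differed between the lines for 46 of 55, against 72.0% of all genes. Among paralogues, CELF5 rose in SKM-1 (1.66 ± 0.48, adjusted p = 8.15e-04) and had a value of 0.95 ± 0.42 in MUTZ-1 (adjusted p = 0.0509), at a mean of at most 0.974 CPM in any group. CELF6 fell in SKM-1 (-3.64 ± 0.41, adjusted p = 1.18e-15), and its MUTZ-1 value was 0.43 ± 0.52 (adjusted p = 0.525).

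Of the 20 splicing regulators tested, 14 changed in MUTZ-1 (1 higher, 13 lower), against 49.0% of all genes (24.4% higher and 24.6% lower). All 20 changed in SKM-1 (13 higher, 7 lower), against 84.4% of all genes (42.1% higher and 42.3% lower). Among those with a mean of at least 5 CPM, the largest falls in SKM-1 were those of the neuronal NOVA1 (-5.56 ± 0.14) and of RBM20 (-1.39 ± 0.06), known from heart muscle, followed by the stress-granule protein TIA1 (-0.49 ± 0.04). NOVA1 was at 1.13, 0.718 and 1.30 CPM in SKM-1 shNUDT21, against 52.0, 47.6 and 49.5 CPM in SKM-1 control. RBM47, known from epithelia (1.63 ± 0.13), RBM38, a p53 target that is also found in erythroid cells (0.99 ± 0.04), and the PTBP1 partner RAVER1 (0.79 ± 0.03) rose most in SKM-1. In MUTZ-1 the falls included those of RBM38 (-0.41 ± 0.03) and RAVER1 (-0.26 ± 0.03), and the 1 splicing regulator that rose had under 5 CPM. Thus RBM38 and RAVER1 changed in opposite directions in the lines. The balance of directions in MUTZ-1 depends on the scaling. For the 55 genes together, library totals as the only scaling gave 11 higher and 21 lower.

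Of the 31 regulators acting at 3′ UTRs, 19 changed in MUTZ-1 (6 higher, 13 lower), against 49.0% of all genes (24.4% higher and 24.6% lower). In SKM-1, 27 of the 31 changed (17 higher, 10 lower), against 84.4% of all genes (42.1% higher and 42.3% lower). At 5 CPM or more, the let-7 inhibitor LIN28B rose in SKM-1 (2.23 ± 0.05), with 124, 116 and 116 CPM in shNUDT21 libraries and 24.7, 24.8 and 26.6 CPM in control libraries. The cytoplasmic polyadenylation factors CPEB1 (1.62 ± 0.11) and CPEB4 (1.34 ± 0.05) followed. The stem-cell regulator MSI1 (-4.70 ± 0.14), the decay factor RC3H2 (-1.38 ± 0.04) and FMR1, the fragile X gene (-1.35 ± 0.05), fell most. In MUTZ-1, IGF2BP2 (0.55 ± 0.04), FXR1 (0.34 ± 0.03) and CPEB4 (0.16 ± 0.03) rose most, and the AU-rich element binder ZFP36L2 (-0.41 ± 0.04), STAU1 (-0.40 ± 0.03) and SYNCRIP (-0.37 ± 0.02) fell most. CPEB4 rose in both lines.

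The pattern of CELF2 over the 4 group means was compared with that of 12543 genes, as the root mean square difference of centred log2 CPM. The nearest were TCEAL9 (0.47), TNFRSF1B (0.50), the tumour necrosis factor receptor 2 gene, SEMA7A (0.50), a membrane-anchored semaphorin, ASRGL1 (0.72) and the dystrophin gene DMD (0.73). TNFRSF1B averaged 0.468 ± 0.172 CPM in MUTZ-1 shNUDT21 and 4.50 ± 1.36 CPM in MUTZ-1 control, and 45.9 ± 2.92 CPM in SKM-1 shNUDT21 and 20.1 ± 1.39 CPM in SKM-1 control (SD, n = 3 each). A fall of at least 2-fold in MUTZ-1 with a rise of at least 2-fold in SKM-1 was found for 51 genes, CELF2 among them. Within the 10 genes, CELF1 and ELAVL1 were the most alike (0.06), and CELF2 and MBNL3 the least (4.66). These likenesses rest on 4 group means and carry no test.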

How the data were processed

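Per the labels' protocols, TRIzol was used to extract RNA and a stranded TruSeq kit for mRNA to prepare libraries. Names found in the submitters' processing notes are GRCh38, HTSeq, HISAT2 and fastp, without versions. The annotation and strand setting of the counting are not given in the sources at hand. The deposited table holds whole-number read counts per gene in 12 libraries. The FPKM table deposited beside it equals the count over the library total and a fixed length per gene, and was used where genes are compared per length and for alternatives.

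Counts were filtered with filterByExpr, TMM-scaled (factors 0.959 to 1.06) and tested together in 1 model (12 libraries, 4 group means) by the quasi-likelihood test of edgeR 4.0.16 in R 4.3.3. P-values were adjusted by Benjamini-Hochberg over 13625 genes. Paralogues can share reads where sequence is near-identical. Depth was 15843012 to 18426619 counts per library, and the biological coefficient of variation was 2.44%. Replicates differed by more than sampling noise (chi-square per degree of freedom 1.66 to 2.25). With 3 libraries against 3, an exact permutation test of 1 gene cannot go below p = 0.1, so the fit across genes was used. Limits taken from 3 counts cover counting error only.

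On simulated counts, the fit recovered 55 of 68 changes of 1.25-fold, 65 of 66 of 1.5-fold and 66 of 66 of 2-fold in the MUTZ-1 comparison. It called 12 unchanged genes. The counts were drawn from the fit's own dispersions, and only genes of high counts were changed. Changes under 1.25-fold, such as those of the genes other than CELF2 in MUTZ-1, and changes of low genes were not simulated. The genes and lists were chosen with earlier results of these data known. Named from the 2 regulator lists were the 3 called genes with the largest change per list, line and direction with a mean of at least 5 CPM, beside all 10 genes, their paralogues, NUDT21 and the 5 genes nearest to CELF2 in pattern (mean of at least 1 CPM). A gene that this rule selects in MUTZ-1 is not reported here. Marker lists of 4 to 6 genes each covered leukocytes, the B lineage, erythroid cells, monocytes and granulocytes, fibroblasts, epithelia and neurons. Alternatives were DESeq2 1.42.0, library totals, no filter, limma 3.58.1 on log2(FPKM + 1) and log2(FPKM + 0.1), only the groups compared, a replicate block, each library left out, and subtraction of chromosome or 5 Mb medians (at least 10 genes). These medians were subtracted from edgeR's log2 fold changes after the fit, as fixed values.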

Additional observations from a re-analysis of the deposited data

Results flagged for a closer look

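The knockdown effect (log2 fold change of shNUDT21 against control, MUTZ-1 minus SKM-1) differed between the lines in edgeR's test of that difference for 9 genes: MBNL3 (3.41), MBNL2 (2.06), RBFOX2 (1.85), PTBP2 (0.81), QKI (-2.16), PTBP1 (-0.89), MBNL1 (-0.76), ELAVL1 (-0.64) and CELF1 (-0.42). Of all genes tested, 72.0% differed. With the median of neighbouring genes subtracted, MBNL2 was at 0.21. CELF2 had a difference of -5.78, with all MUTZ-1 shNUDT21 libraries below control and all SKM-1 shNUDT21 libraries above control. That difference was not tested, because it contains the MUTZ-1 value for which the gene was chosen.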

How the results depend on the processing

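Of 1670 values of 80 single-gene results under the alternatives, 1638 kept their direction and their side of the threshold, or moved by less than the replicate spread. The sign turned for PTBP3 in MUTZ-1, uncalled throughout (0.024 with library totals and with both FPKM pseudocounts; leaving out 1 library each, -0.023 to 0.02, above 0 without MUTZ-1 shNUDT21 replicate 2, MUTZ-1 control replicate 1 or SKM-1 shNUDT21 replicate 2). With the 5 Mb median subtracted, chosen after seeing the data, the sign turned for CELF1 in SKM-1 (-0.11) and for MBNL1 between the knockdown lines (-0.36). PTBP1 between the knockdown lines was then no longer called (-0.01). The adjusted p of CELF1 there, 0.00134, is for edgeR's value less the median, without the spread of the neighbours. With the chromosome median subtracted, CELF1 in SKM-1 was not called (0.06, adjusted p = 0.0641). The CELF2 fall in MUTZ-1 shrank to -0.95 and -2.48 on log2(FPKM + 1) and log2(FPKM + 0.1), scales that understate changes of low genes. CELF5 in MUTZ-1 was called under 8 alternatives, with adjusted p down to 0.0207. The number of genes called ran from 6 to 9 of the 9 tested in MUTZ-1 and from 9 to 10 of 10 in SKM-1. With the replicate block, 8 genes in MUTZ-1 and 10 in SKM-1 were called, and 32 and 50 of the 55 others; the block changed no call of a named gene. Same-numbered libraries did not deviate together (correlations -0.07 to 0.02), so no shared effect of a replicate number was seen. Whether same-numbered libraries were prepared together cannot be told from these values. Depth limits ELAVL2 in MUTZ-1 (0 to 3 counts per group), and replicates of unknown origin limit all p-values.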
